A study of Mus musculus with 11 samples.

Results

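The nuclear genes for subunits of the mitochondrial oxidative phosphorylation complexes were examined in RNA from mouse cerebral cortex. Members were taken by name: gene symbols starting with Nduf, Sdh, Uqcr, Cox4 to Cox8 or Atp5 in the form used for subunits, plus Cyc1. Of 16228 genes in the deposited table, 82 carried such a name, and 79 of these had a normalised signal of at least 1 in at least 3 of the 11 libraries. These 79 were tested among 14330 genes that met the same minimum. By name, 36 belonged to complex I, 4 to complex II, 9 to complex III, 13 of 16 to complex IV and 17 to complex V. The 3 that did not meet the minimum were Cox4i2, Cox6b2 and Cox7a1.

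The study was set up to follow what the 2 atypical protein kinase C enzymes, products of Prkci and Prkcz and known from cell polarity, do in cells of the oligodendrocyte lineage. One library was sequenced per mouse from a 4 mm punch of cerebral cortex at postnatal day 30, with paired reads of 100 bp, and the series describes the 3 to 4 replicates per genotype as biological. The Prkci cKO group held 4 mice labelled Ng2 Cre+ Prkci f/f, and the Prkcz cKO group held 3 mice labelled Ng2-Cre+ Prkcz f/f. The 4 controls carried floxed Pkcz alleles and no Cre in their labels, Pkcz f/+ in replicates 1 and 2 and Pkcz f/f in replicates 3 and 4. No group was treated. There was no control with Cre and none from the Prkci line, so Cre, line and deletion cannot be told apart. Ng2-Cre is driven by regulatory sequence of the NG2 proteoglycan gene, which oligodendrocyte precursors and pericytes express, whereas the punches held all cortical cells. In such bulk tissue, fewer cells of a type and less RNA per cell cannot be told apart.

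Oxidative phosphorylation takes place in the inner mitochondrial membrane. Complexes I and II pass electrons from NADH and succinate to ubiquinone, complex III passes them to cytochrome c, and complex IV hands them to oxygen. Complexes I, III and IV pump protons as they do so, and complex V, the ATP synthase, uses the resulting gradient to make ATP. Most subunits are encoded in the nucleus and the rest in mitochondrial DNA. Neurons draw most of their ATP from this pathway, and the nuclear genes for its subunits are known targets of the transcription factors NRF1, the ETS protein GABPA, YY1 and ESRRA.

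The targeted genes were checked first. Control libraries had Prkci at 87.8 ± 2.52 (SD, n = 4), and it fell by 0.39 on the log2 scale to 67.0 ± 1.47 (SD, n = 4) in Prkci cKO (limma adjusted p = 0.000984). Control libraries had Prkcz at 323 ± 20.2 (SD, n = 4) and the Prkcz cKO libraries at 278 ± 15.1 (SD, n = 3), a log2 difference of -0.22 that did not pass the threshold (adjusted p = 0.0966). By the spacing of its low values, Prkcz cKO 3 was the shallowest library. If the signal is read as CPM, a unit that the sources used here do not state, the spacing corresponds to 14700000 reads for Prkcz cKO 3 and 20600000 to 28200000 for the other libraries. A signal of 50 would then stand for 737 reads in Prkcz cKO 3 and for 1031 to 1408 in the others. Neuron markers were read as a check for neural tissue. They do not tell cortex from striatum, whose markers are given below. The summed signal of 11 neuron markers was 11339 to 12252 over all libraries. Rbfox3, a marker of neuronal nuclei, was 367 to 412.

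Promoter sites that match NRF1 are shown first, since this factor is a known regulator of these genes. Windows from 250 bases before to 50 bases after a RefSeq start (GRCm38.p6) were found for 65 of the 79 genes, 71 windows of 300 bases in all. The NRF1 core was searched as GCGCANGCG on both strands. It was present in 21 of 71 subunit windows (29.6%) and in 1709 of 14108 windows of the other genes tested (12.1%). Windows with the core belonged to 8 of 32 genes of complex I, 2 of 3 of complex II, 2 of 5 of complex III, 1 of 9 of complex IV and 7 of 16 of complex V. A first search with 1 more C at the end of the core gave 25.4% against 9.0%. The matches of 5 genes described below are shown on the strand of the gene, 5′ to 3′, with the matched letters in capitals:
Atp5c1 (complex V, chr2:10080430-10080459, minus strand): ctgagctcccGCGCACGCGcactgagtccc
Atp5g2 (complex V, chr15:102671070-102671099, minus strand): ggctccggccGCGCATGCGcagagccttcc
Cox6a1 (complex IV, chr5:115349056-115349085, minus strand): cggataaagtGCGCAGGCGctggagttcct
Cox6a1 (complex IV, chr5:115349101-115349130, minus strand): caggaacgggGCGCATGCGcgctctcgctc
Sdha (complex II, chr13:74350231-74350260, minus strand): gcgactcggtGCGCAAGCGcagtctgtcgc
Sdha (complex II, chr13:74350276-74350305, minus strand): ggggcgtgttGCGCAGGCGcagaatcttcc
Sdha (complex II, chr13:74350319-74350348, minus strand): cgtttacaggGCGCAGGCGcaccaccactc
Sdhd (complex II, chr9:50603909-50603938, minus strand): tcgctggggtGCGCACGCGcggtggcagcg

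Sdha, the flavoprotein of succinate dehydrogenase, had matches that began 10, 55 and 98 bases before its start, listed as -10, -55 and -98. The match of Atp5c1, the gamma subunit of the ATP synthase, began at -17, that of Atp5g2 at -42, those of Cox6a1 at -117 and -162, and that of Sdhd at -79. In Atp5g2 and at the farther site of Cox6a1, the core together with the C that follows it reads the same on both strands, so a second match lay on the other strand, shifted by 1 base.

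Other motifs were searched in the same windows, on both strands. The ETS letters CCGGAAG were in 22.5% of subunit windows and 15.7% of the others, the YY1 letters AAGATGG in 18.3% and 6.6%, and the ESRRA letters AAGGTCA in 11.3% and 3.3%. The SP letters GGGCGG were in 38.0% of subunit windows and 61.4% of the others. CCAAT was in 40.8% and 37.3%, and TATAAA in 8.5% and 7.2%. Median GC content was 58.3% in subunit windows and 60.7% in the others. A match describes these letters only and does not show that a factor binds there.

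Subunit genes were among the more abundant transcripts of the cortex. Their summed signal was 0.783% to 0.914% of a library's total, and 76 of the 79 had a higher mean signal than the median gene tested. Per kilobase of annotated exon, which allows levels of different genes to be compared, the median subunit gene was at 49.2 and the median gene tested at 5.3. The medians were 39.3 for complex I, 46.9 for complex II, 69.5 for complex III, 71.5 for complex IV and 51.2 for complex V. With the longest coding transcript as the length, they were 55.3, 66.8, 93.6, 143 and 112, so complex IV was highest and complex I lowest under both lengths, while the order of complexes III and V changed.

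Within complex IV, Cox8a had the highest level per kilobase of exon of all members at 365. Cox6a1 followed at 232, Cox6b1 at 202 and Cox4i1 at 178. All are structural subunits that surround the catalytic core encoded in mitochondrial DNA. In complex V, Atp5a1 and Atp5b, the alpha and beta subunits that form the catalytic head, were at 268 and 257 per kilobase. These 2 genes alone gave 20.7% to 23.2% of the summed signal of all members. In complex I the top levels per kilobase were much lower, at 79.9 for Ndufc2 and little less for Ndufb9, which are both accessory subunits. Sdha led complex II at 92.5, and Sdhd, a membrane anchor, was second at 52.5. In complex III, Uqcr11, a small subunit, was at 88.6 and Uqcrfs1, the Rieske iron-sulfur protein, at 79.7. With the longest coding transcript as the length, other members led: Atp5b was highest at 568, against 411 for Cox8a. Ndufa4 then led complex I at 166 and Uqcrh complex III at 158. In complex II, Sdhb was second at 81.2, above Sdhd at 52.5.

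**Figure D1:**
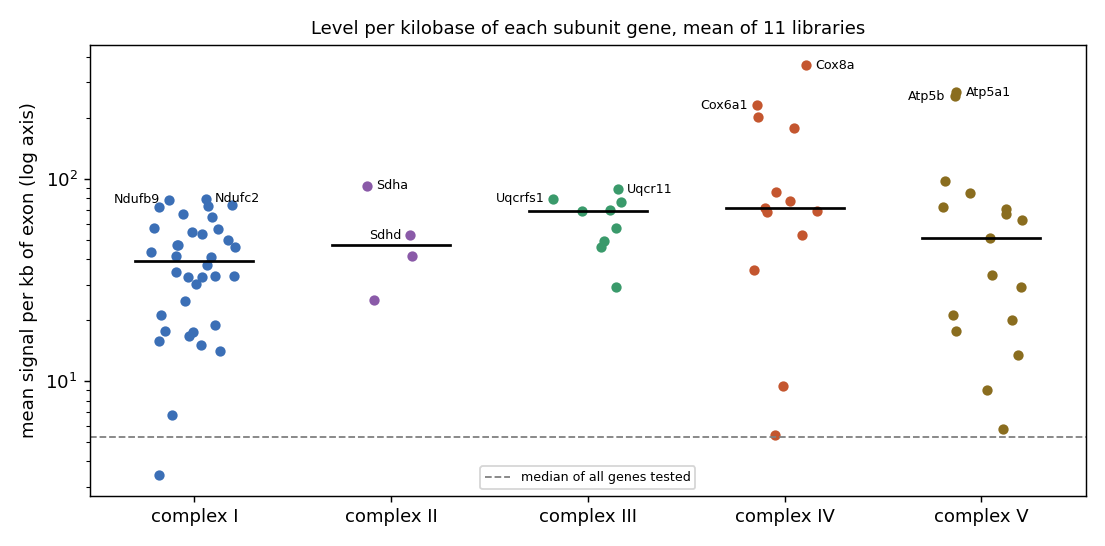
Mean normalised signal per kilobase of exon over 11 libraries (log axis) for each subunit gene, by complex. Bars are medians of the complex and the dashed line is the median of all genes tested, 5.3. Cox8a at 365 is the highest, and 78 of 79 members lie above the dashed line.

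Tissue-specific isoforms were measured at very different levels. Cox6a1, the isoform of most tissues, had a signal of 146 to 191, whereas Cox6a2, the isoform of heart and skeletal muscle, had 2.66 to 4.33. Cox6a2 was the lowest member that met the minimum, with a mean of 3.69, followed by Atp5s at 11.8 and Ndufb2 at 19.2. The isoforms below the minimum were Cox4i2, associated with lung, at 0.40 to 1.11, the testis isoform Cox6b2 at 0.44 to 1.10, and the muscle isoform Cox7a1 at 0.24 to 0.75. Their partners Cox4i1, Cox6b1 and Cox7a2 had signals of 238 to 332, 131 to 162 and 72.4 to 99.9. Of 14 muscle markers, 6 were in the table. Acta1 was 6.26 to 10.79 and Tnnt2 was 1.86 to 3.79. The others were lower, with Myh2 at 0.96 to 2.1, Myh1 at 0.58 to 1.46, Myh4 at 0.2 to 1.11 and Myh6 at 0.05 to 0.53. Whether the Cox6a2 signal came from muscle RNA or from cells of the cortex was not tested.

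The c ring of the ATP synthase is built from 1 mature protein that 3 genes encode with different import sequences. Per kilobase, Atp5g3 was at 71.2, Atp5g2 at 33.6 and Atp5g1 at 17.6. By mean signal, without regard to length, Atp5g3 was at 155, Atp5g1 at 86.6 and Atp5g2 at 56.2. The order of Atp5g1 and Atp5g2 thus rests on annotated length. The longest coding transcript of Atp5g1 was 4715 bp, against 753 bp for Atp5g2 and 723 bp for Atp5g3. None of the 3 passed the threshold in any comparison. Their log2 differences from controls were 0.02, 0.06 and 0.04 in Prkci cKO and 0.14, 0.09 and 0.13 in Prkcz cKO, in the order Atp5g3, Atp5g2 and Atp5g1.

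The summed signal of the 79 genes was 8535, 8417, 8264 and 8464 in controls 1 to 4. In Prkci cKO it was 9227, 8539, 8513 and 8701. In Prkcz cKO it was 8871, 8900 and 9341. Every Prkcz cKO library was above every control, while Prkci cKO 3 lay below control 1. The means were 8420 ± 115 (SD, n = 4) in controls, 8745 ± 332 (SD, n = 4) in Prkci cKO and 9037 ± 264 (SD, n = 3) in Prkcz cKO, which is 3.86% and 7.33% above controls.

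**Figure D2:**
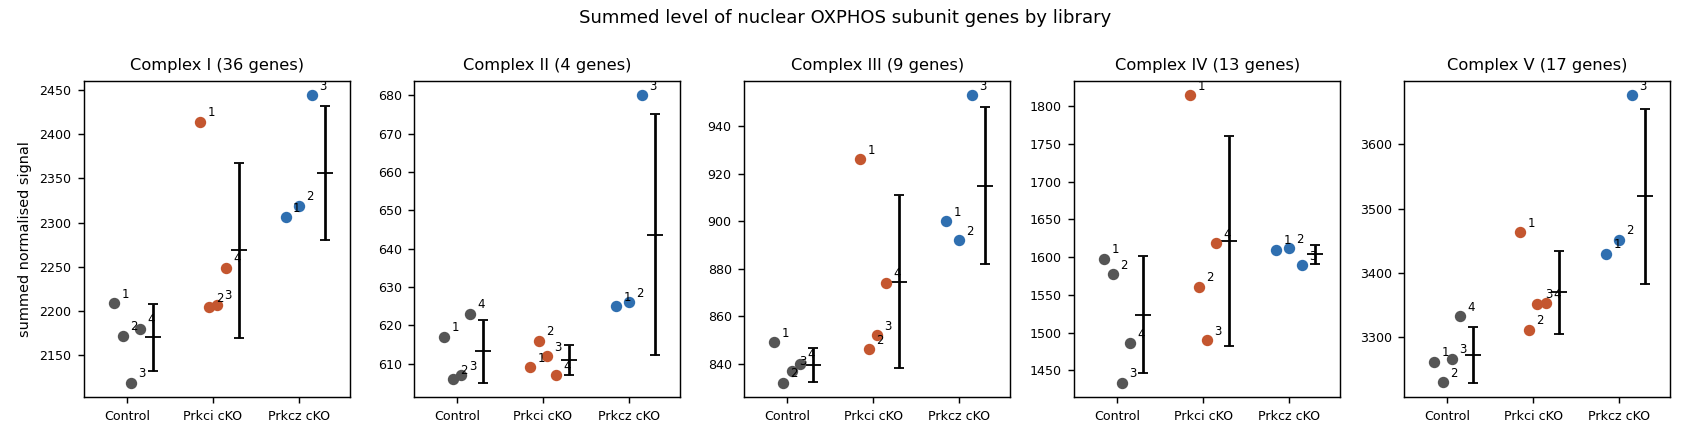
Summed normalised signal of the members of each complex in each library (points, numbered by replicate), with the group mean and SD beside them. Axes do not start at 0. Prkcz cKO 3 is the highest library for complexes I, II, III and V, and Prkci cKO 1 for complex IV at 1814.

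In Prkci cKO, no subunit gene passed the threshold of an adjusted p under 0.05 in limma's test, against 1.61% of all genes tested. At an unadjusted p under 0.05, 7 of 79 genes (8.86%) were higher, where 4.28% of all genes were, and 0 were lower, where 7.79% of all genes were. In 5 genes (6.33%) all knockout libraries lay above all controls, against 3.18% of all genes: Atp5c1, Atp5o, Ndufa5, Ndufa8 and Ndufb7, named after their values were seen. In 0 genes did all knockout libraries lie below the controls, against 5.32%. The median log2 difference over the 79 genes was 0.07, or 4.8%, and 69 of 79 differences were above 0. Over all genes tested the median was 0.00 and 50.9% were above 0. By complex, the medians were 0.07 (I), -0.01 (II), 0.06 (III), 0.07 (IV) and 0.05 (V). Leaving out Prkci cKO 1 took the median to 0.04 and the 7 genes at an unadjusted p under 0.05 to 0; without control 3 or without control 4 the count was 1. It was 4 without Prkci cKO 4, 12 without Prkci cKO 3, and 15 with the Pkcz f/f controls alone. With no variance trend it was 2.

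The smallest p-value in this comparison was that of Uqcrq, a small subunit of complex III. Its signal was 51.0, 46.4, 50.9 and 46.4 in the controls and 62.3, 52.9, 48.7 and 59.1 in Prkci cKO. Replicates 1 and 4 of the knockout were high and replicate 3 lay within the controls. The log2 difference was 0.19 (SE 0.071, limma adjusted p = 0.271). Ndufa4, named for complex I but now regarded as a component of complex IV, had the highest log2 difference at 0.20 (adjusted p = 0.369). It was 99.5, 103, 81.1 and 88.8 in the controls and 125, 104, 93.4 and 107 in Prkci cKO, so the groups overlapped. Ndufb11, an accessory subunit of complex I, was 46.5 to 50.7 in the controls and 50.6 to 54.7 in Prkci cKO, with a difference of 0.11 (adjusted p = 0.332). At the other end was Cox5a, a structural subunit of complex IV, at -0.03 (adjusted p = 0.873).

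In Prkcz cKO, again 0 of 79 genes passed the adjusted threshold in limma's test, against 0.649% of all genes tested. At an unadjusted p under 0.05, 28 genes (35.4%) were higher against 5.62% of all genes, and 0 were lower against 9.34%. All Prkcz cKO libraries lay above all controls in 27 genes (34.2%), against 5.16% of all genes, and below them in 0, against 6.72%. The median log2 difference was 0.11, or 8.1%, and 76 of 79 differences were above 0. Over all genes tested, the median was -0.01 and 48.2% were above 0. The medians by complex were 0.12 (I), 0.11 (II), 0.13 (III), 0.09 (IV) and 0.09 (V). A 95% interval reached 0.13 to either side of the difference for the median gene, which is wider than the median difference itself. Without Prkcz cKO 3, the median over members was 0.09 and 12 genes were at an unadjusted p under 0.05.

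**Figure D3:**
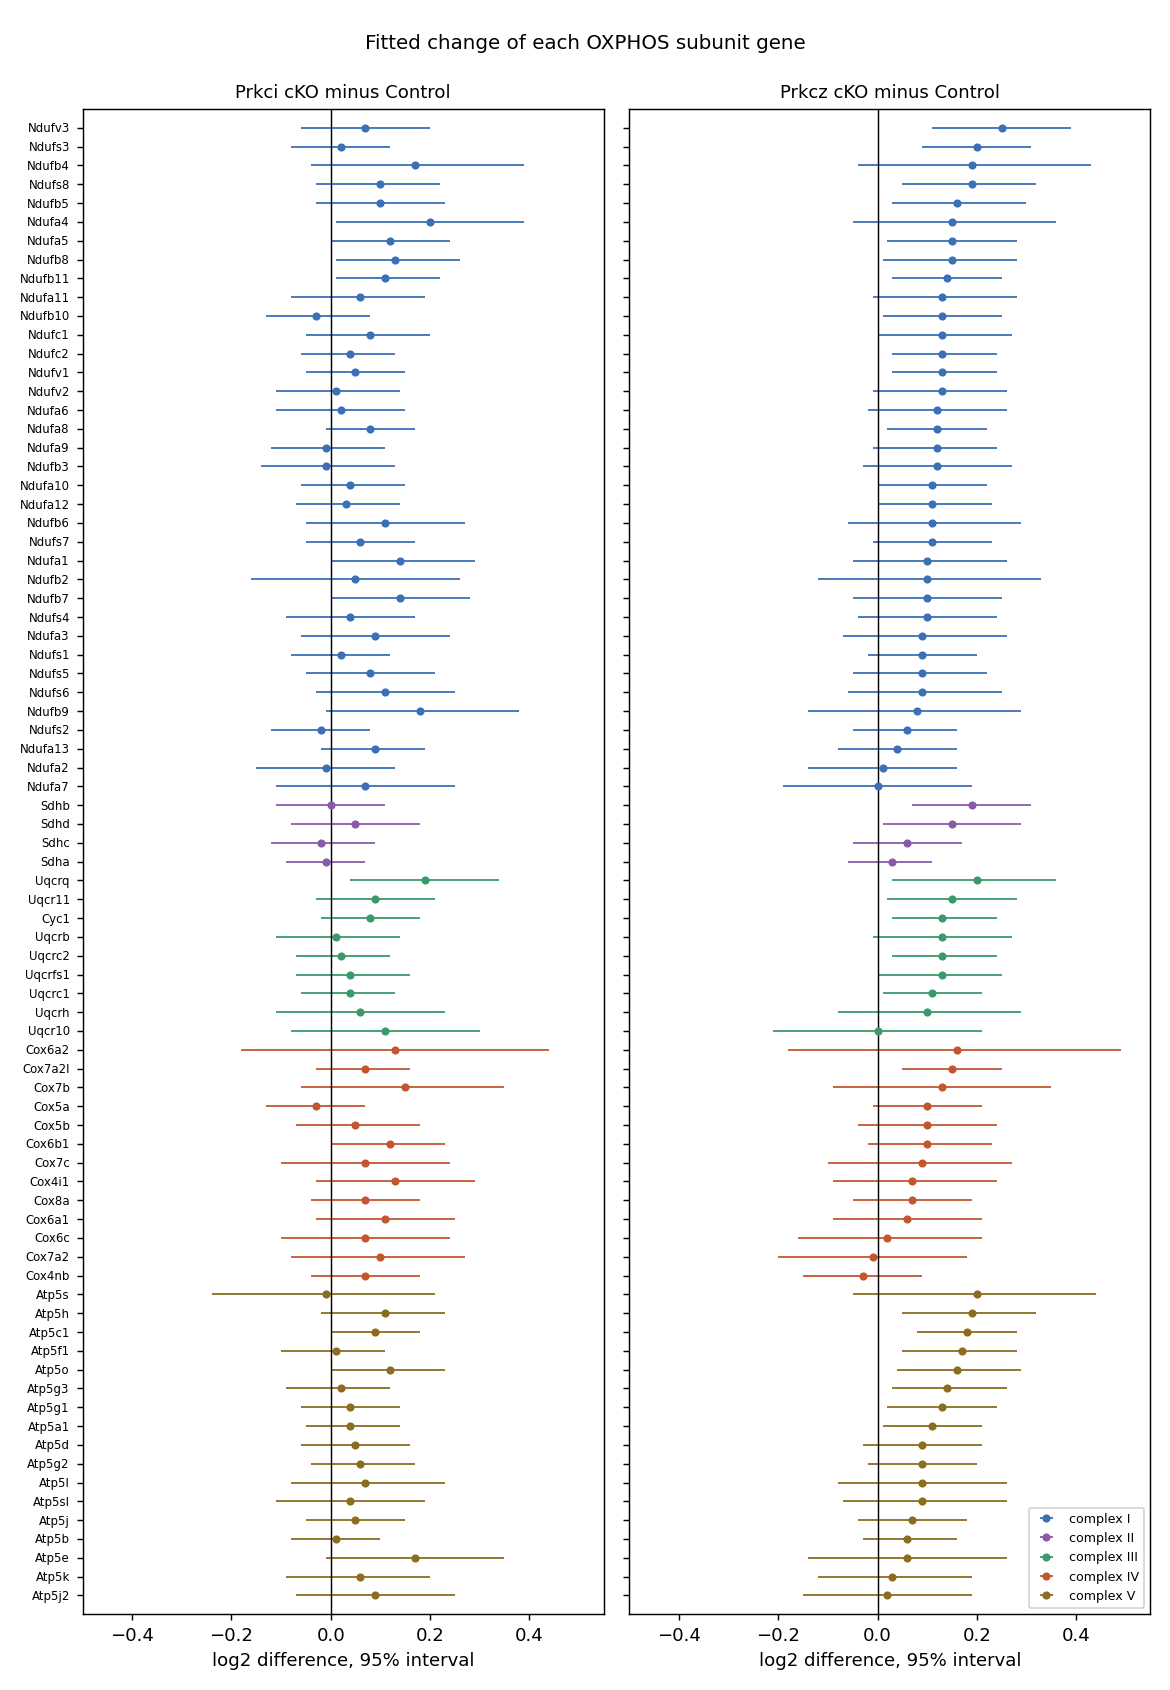
Fitted log2 difference from controls of each of the 79 genes with its 95% interval, for Prkci cKO (left) and Prkcz cKO (right), coloured by complex and ordered by the right panel. Differences lie above 0 for 69 genes on the left and 76 on the right. Both panels use the same controls.

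Ndufs3, a core subunit of the iron-sulfur arm of complex I, had the smallest p-value in Prkcz cKO. Its signal was 89.9, 84.5, 87.6 and 85.2 in the controls and 96.7, 96.3 and 106 in Prkcz cKO. All 3 knockout libraries were above all 4 controls. The log2 difference was 0.20 (SE 0.049, limma adjusted p = 0.0879). Ndufs3 overlaps Kbtbd4 on the opposite strand and has 1 near-identical copy in the genome, and the sources used here do not say whether counting used strand. Ndufv3, an accessory subunit next to the NADH site, had the highest difference of all members at 0.25 (SE 0.066, adjusted p = 0.113). It was 44.3, 43.9, 41.7 and 38.5 in the controls and 48.2, 48.3 and 53.6 in Prkcz cKO, without overlap. Over the 7 core subunits of complex I the median difference was 0.13, with 3 higher at an unadjusted p under 0.05. Over 28 accessory subunits it was 0.12, with 9. Of all genes tested, 5.62% were higher at that level.

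Sdhb, the iron-sulfur subunit of complex II, was the steadiest member among controls. It was 88.5, 88.6, 89.7 and 90.1 there and 100, 93.9 and 112 in Prkcz cKO. No knockout library fell within the control range. The difference was 0.19 (adjusted p = 0.139). Sdhd had a difference of 0.15 (adjusted p = 0.305) and its values overlapped, at 59.0 to 64.0 in controls and 66.1, 63.1 and 77.6 in Prkcz cKO. Sdha and Sdhc, its fellow membrane anchor, had differences of 0.03 and 0.06. All 4 genes of complex II were highest in Prkcz cKO 3.

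In complex III, the 4 redox and core proteins Cyc1, Uqcrfs1, Uqcrc1 and Uqcrc2 had differences of 0.11 to 0.13. At an unadjusted p under 0.05, 4 of 4 were higher, against 5.62% of all genes tested. The small subunits ranged from 0.00 to 0.20. Uqcrq was the highest of them, at 57.4, 53.8 and 56.2 in Prkcz cKO. In complex IV, Cox7a2l, which takes part in joining complexes III and IV into supercomplexes, was the sole member at an unadjusted p under 0.05, with a difference of 0.15 (adjusted p = 0.172). It was 93.5 to 103 in the controls and 109, 112 and 106 in Prkcz cKO, without overlap.

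In complex V, Atp5c1, part of the central stalk that turns in the catalytic head, was 172, 176, 179 and 175 in the controls and 196, 190 and 213 in Prkcz cKO. The groups did not overlap, and the log2 difference was 0.18 (SE 0.046, limma adjusted p = 0.0938). Prkci cKO lay between them for this gene, at 192, 181, 187 and 187. The 4 genes of the peripheral stalk, which holds the head still, had a median difference of 0.16. At an unadjusted p under 0.05, 3 of them were higher, against 5.62% of all genes tested. One of these 3 was Atp5f1, at 198 to 207 in the controls and 228, 212 and 244 in Prkcz cKO (0.17, adjusted p = 0.17). Atp5b, the beta subunit, was the most abundant member by signal and differed by 0.06 (adjusted p = 0.526), with controls at 1034 to 1110 and Prkcz cKO at 1087 to 1165. The 3 small membrane subunits Atp5j2, Atp5k and Atp5l had a median of 0.03 and none was at an unadjusted p under 0.05.

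**Figure D4:**
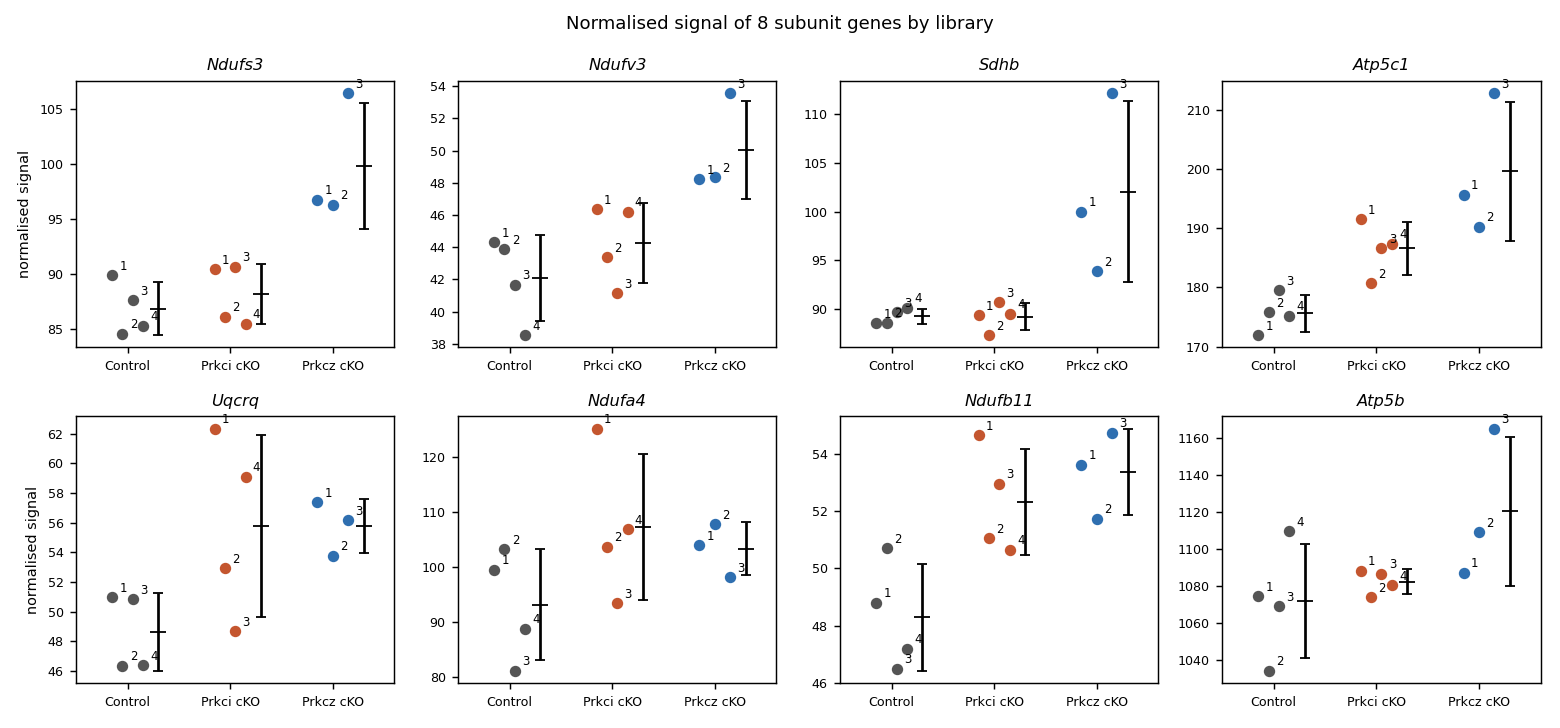
Normalised signal of 8 genes in each library (points, numbered by replicate), with the group mean and SD beside them. Axes do not start at 0. Ndufs3, Ndufv3, Sdhb, Atp5c1, Uqcrq and Ndufb11 show Prkcz cKO above all controls, whereas the values of Ndufa4 and Atp5b overlap between all groups.

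Between the knockouts, 0 of 79 genes passed the adjusted threshold in limma's test, against 0.3% of all genes tested. At an unadjusted p under 0.05, 0 genes had the higher level in Prkci cKO, against 9.76% of all genes, and 9 (11.4%) the lower, against 6.22%. Without overlap, 0 were higher, against 7.36%, and 6 (7.59%) were lower, against 6.43%, which is close to the background. These 6 were Cox5a, Ndufb10, Ndufs3, Ndufv3, Sdhb and Uqcrc2, of which Ndufb10 and Uqcrc2 were named after their values were seen. The median difference was -0.05, with 18 of 79 above 0, against -0.01 and 48.5% over all genes. Ndufs3 had a difference of -0.18 (adjusted p = 0.153), Sdhb of -0.19 (adjusted p = 0.16) and Atp5f1 of -0.16 (adjusted p = 0.204). The extremes were Atp5s at -0.21 and Atp5e, the epsilon subunit of the central stalk, at 0.11. Leaving out Prkci cKO 1 gave a median of -0.08 and leaving out Prkcz cKO 3 gave -0.02, with 14 and 2 genes at an unadjusted p under 0.05; without Prkci cKO 2 or 4 the counts were 6 and 5.

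Single libraries stood apart in these genes. Of the 79, 35 were highest in Prkci cKO 1 and 35 in Prkcz cKO 3, where 10.3% and 20.6% of all genes tested had their highest value. The 2 libraries differed in which members were highest. Of 24 members whose longest coding transcript was under 700 bp, 18 were highest in Prkci cKO 1 and 5 in Prkcz cKO 3. Of 25 members of 1400 bp or more, 3 were highest in Prkci cKO 1 and 19 in Prkcz cKO 3. In complex IV, 9 of 13 members were highest in Prkci cKO 1 and 10 of 13 were lowest in control 3.

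Subunit genes are short, with a median longest coding transcript of 918 bp against 3280 bp for the other genes tested, so they were set beside other genes of the same length with a mean signal of at least 20. In Prkci cKO 1 the short members had a median of 0.27 above the control mean (log2) and 54 other short genes 0.26. Cytoplasmic ribosomal protein genes, which are short as well, were at 0.33 in that library. In Prkcz cKO 3 the members of 1400 bp or more were at 0.18 and 7056 other genes of that length at -0.02. Members between these lengths were at 0.16 there, as were 443 other genes of that length. The group comparison of Prkcz cKO with controls gave medians of 0.10, 0.13 and 0.11 for short, middle and long members, and 0.02, 0.09 and -0.01 for the other genes of those lengths. For Prkci cKO the medians were 0.09, 0.07 and 0.04 for members and 0.11, 0.04 and 0.00 for the others. The part of transcript length in the differences was not tested.

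**Figure D5:**
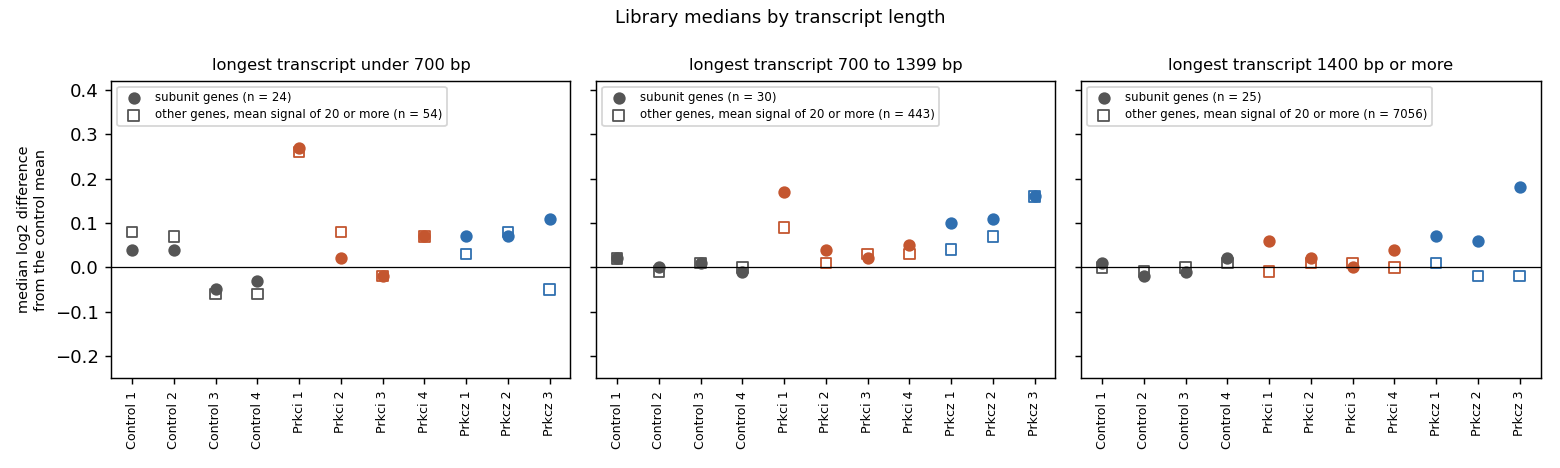
Median log2 difference from the control mean in each library, for subunit genes (filled circles) and other genes with a mean signal of at least 20 (open squares), in 3 classes of transcript length. Short genes of both kinds are high in Prkci cKO 1, at 0.27 and 0.26, and long subunit genes are at 0.18 in Prkcz cKO 3 where other long genes are at -0.02.

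Members with an NRF1 match had median differences of 0.08 in Prkci cKO and 0.13 in Prkcz cKO (20 genes). The 45 with a promoter window and no match had 0.06 and 0.11. No difference between the 2 sets was tested.

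The name rule also took genes that are not subunits of the complex they are named for. Cox4nb is Emc8 of the endoplasmic reticulum membrane complex, and had the lowest difference in Prkcz cKO at -0.03. Atp5s and Atp5sl, now known as assembly-related factors, had differences of 0.20 and 0.09 in Prkcz cKO and -0.01 and 0.04 in Prkci cKO. Without these 3, Ndufa4 and Cox7a2l, the medians were 0.07 in Prkci cKO and 0.11 in Prkcz cKO, equal to those over 79 genes at this precision.

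Other genes of the pathway were counted in the same fit. Among 29 assembly factors of the complexes, 16 citric acid cycle genes and 13 regulators of mitochondrial biogenesis, 0 passed the threshold of limma's test in any of the 3 comparisons; at an unadjusted p under 0.05 in Prkcz cKO, 1, 4 and 1 were higher and 1, 0 and 1 were lower. In Prkci cKO, 0 of these genes were at an unadjusted p under 0.05, and between the knockouts 0, 0 and 2 were higher in Prkci cKO and 2, 3 and 1 lower. Their medians were -0.01, 0.01 and 0.00 in Prkci cKO and 0.03, 0.06 and -0.01 in Prkcz cKO. Genes for 75 mitochondrial ribosomal proteins had a median of 0.11 in Prkcz cKO, equal to that of the subunits, with 70 above 0. At an unadjusted p under 0.05, 16 were higher, and none passed the adjusted threshold. For all genes tested the unadjusted shares were 5.62% higher and 9.34% lower in Prkcz cKO, and 9.76% and 6.22% between the knockouts. Of 6 subunits outside the name rule, Atpif1, the ATP synthase inhibitor, had differences of 0.17 (adjusted p = 0.162) in Prkci cKO and 0.20 (adjusted p = 0.119) in Prkcz cKO. The medians of these 6 genes were 0.12 and 0.02, with 4 of 6 above 0 in each, and in Prkcz cKO 3 their median was -0.09, where that of the 79 members was 0.16. Among regulators, Gabpa was at -0.18 (adjusted p = 0.154) and Tfam, which packages mitochondrial DNA, at 0.18 (adjusted p = 0.256) in Prkcz cKO. For the 13 listed genes of mitochondrial DNA, 0 were found by name among the 16228 genes, so they could not be analysed here.

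Of 15 glycolysis genes, 1 passed the threshold. Eno1, an enolase of most cell types, fell by 0.36 on the log2 scale in Prkci cKO (SE 0.058, limma adjusted p = 0.00576), from 618 ± 46.7 (SD, n = 4) to 481 ± 11.8 (SD, n = 4). It was 639 ± 47.7 (SD, n = 3) in Prkcz cKO, and the difference between the knockouts was -0.41 (adjusted p = 0.0139). Prkci cKO was the sole group without floxed Pkcz or Prkcz alleles in its labels, so line and deletion cannot be told apart here. The other 14 glycolysis genes did not pass the threshold, and the median of the list was 0.04 in Prkci cKO and 0.08 in Prkcz cKO. Differences were above 0 for 11 and 13 of the 15 genes. In Prkcz cKO, 5 were higher at an unadjusted p under 0.05, against 5.62% of all genes, and 0 lower, against 9.34%. In Prkci cKO, 2 were higher at that level, against 4.28%, and 1 lower, against 7.79%.

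Cell type markers moved with the groups and are given beside these values. A marker is said to have fallen where its difference was negative and its adjusted p in limma's test was under 0.05. Over all genes tested, 1.61% in Prkci cKO and 0.649% in Prkcz cKO passed that threshold in either direction. Of 12 oligodendrocyte and myelin markers, 11 fell in Prkci cKO and 4 in Prkcz cKO, with medians of -0.87 and -0.63. All 12 were lower at an unadjusted p under 0.05 in both, against 7.79% and 9.34% of all genes. The summed signal of these markers was 5551 to 8389 in controls, 2907 to 4696 in Prkci cKO and 3948 to 4394 in Prkcz cKO. Of 11 neuron markers none passed the threshold, and their medians were 0.03 and 0.06. At an unadjusted p under 0.05, 2 and 3 were higher, against 4.28% and 5.62% of all genes. The lower ones were 1 and 0, against 7.79% and 9.34%. The summed signal of the neuron markers was 11367 to 11741 in controls, 11339 to 12252 in Prkci cKO and 11872 to 12237 in Prkcz cKO. Endothelial markers had medians of 0.13 and -0.26, with 0 and 2 of 10 falling. Of 9 pericyte and smooth muscle markers tested, 0 and 1 fell (medians -0.01 and -0.39), and of 10 astrocyte markers 0 and 1 fell (-0.03 and -0.15). In Prkcz cKO, 8, 7 and 5 markers of these lists were lower at an unadjusted p under 0.05, against 9.34% of all genes. There, 0 were higher in each list, against 5.62%. In Prkci cKO, 4, 0 and 1 were higher at that level, against 4.28%, and 0, 0 and 2 lower, against 7.79%.

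Oligodendrocyte precursors are among the cells in which Ng2-Cre acts. Of 8 markers of these cells, 3 fell in Prkci cKO and 2 in Prkcz cKO, with medians of -0.32 and -0.35. The adjusted threshold was passed by 1.61% and 0.649% of all genes tested. In each knockout 6 of the 8 were lower at an unadjusted p under 0.05, against 7.79% and 9.34% of all genes. In each, 1 of the 8 was higher at that level, against 4.28% and 5.62%. The summed signal of these markers was 354 to 376 in controls, 272 to 313 in Prkci cKO and 259 to 284 in Prkcz cKO. Of 12 immediate early genes, which neuronal activity induces, 8 fell in Prkci cKO and 9 in Prkcz cKO, with medians of -1.11 and -1.10. All 12 were lower at an unadjusted p under 0.05 in both, against 7.79% and 9.34% of all genes. The summed signal of the immediate early genes was 564 to 1189 in controls, 434 to 510 in Prkci cKO and 316 to 491 in Prkcz cKO. Of 10 striatum markers 0 passed the threshold of limma's test. At an unadjusted p under 0.05, 10 of 10 were lower in Prkci cKO, against 7.79% of all genes, with a median of -0.90. In Prkcz cKO 0 of these markers were lower, against 9.34% of all genes, and the median was -0.04. The summed signal of the striatum markers was 733 to 1228 in controls, 363 to 677 in Prkci cKO and 743 to 1655 in Prkcz cKO. Prkcz cKO 3, in which many members were highest, had a striatum median of 0.72 above the control mean, and the other Prkcz cKO libraries had -0.46 and -0.41. Choroid plexus markers varied widely among controls, with sums of 94.2 to 974 against 439 to 704 in Prkci cKO and 607 to 992 in Prkcz cKO. Microglia, parvalbumin interneuron, choroid plexus, muscle, brown fat and erythrocyte markers had 0 genes past the threshold in limma's test in either knockout. At an unadjusted p under 0.05 in Prkci cKO, 2 of 10 microglia and 1 of 4 muscle markers tested were higher, against 4.28% of all genes. There, 1 of 8 parvalbumin interneuron markers was lower, against 7.79%. In Prkcz cKO, 2 of 10 microglia and 1 of 3 brown fat markers were lower at that level, against 9.34%, and 0 were higher, against 5.62%. No marker found in the table was at 0 in every library. That says little, since 16227 of all 16228 genes were above 0 in at least 1 library. By name, 10 of 12 striatum, 6 of 14 muscle, 3 of 6 brown fat and 5 of 8 erythrocyte markers were found. The part of cell composition, of neuronal activity and of tissue outside the cortex in the subunit values was not tested.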

How the data were processed

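The data were a table of 16228 genes in 11 libraries. Its values are a normalised signal that the authors deposited, with column sums of 1021767 to 1082562; the sources used here do not say how it was scaled. Per the submitters' processing notes, FastQC, Trim Galore, STAR, RSEM and edgeR were used on GRCm38, and versions are not given. Low values lay on whole multiples of a step in 85.9% to 89.2% of cases, which gave relative depth but not whole reads, so no count test was run.

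Tests used log2(value + 0.5), on which changes of weakly expressed genes come out too small. Genes at 1 or more in at least 3 libraries entered 1 fit of all 11 libraries with limma 3.58.1 in R 4.3.3 (lmFit, then eBayes with its trend option; 8 residual degrees of freedom). Two-sided p-values were Benjamini-Hochberg adjusted over all 14330 genes and called under 0.05; the script was tested on simulated data. Values are means ± SD, and errors of differences are standard errors.

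Lengths and positions came from GENCODE M21 (GRCm38): all 79 members matched, 2 through a RefSeq synonym. Near-identical copies (blastn 2.17.0, at least 95% identity over 50% of the transcript) existed for 7 members, and 25 overlapped another gene by 50 or more exonic bases; these counts are uncertain, since strand use is not stated. Promoter sequences came from RefSeq (GRCm38.p6), and the NRF1 core was shortened by 1 letter after the first search had been seen.

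Members and lists were chosen with earlier results of these data known. Members were named if highest per kilobase in their complex, alternative isoforms, of smallest p or extreme difference in a comparison, or misnamed by current knowledge. Alternatives covered the pseudocount, filter, scaling, variance model, libraries fitted, the Pkcz f/f controls alone, the replicate number as a block, and each library left out in turn.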

Additional observations from a re-analysis of the deposited data

Results flagged for a closer look

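A sample far from the others was looked for in 76 sets of 4 values, the controls or the Prkci cKO libraries for each of 32 named members and for summed signals. The search marked 2 (2.63%), and chance marks about 1 in 20. Atp5a1, the alpha subunit of the ATP synthase, was 854 in control 4 against 799 to 802 in the other controls, a gap of 0.944 of the whole range. Atp5g2, a gene of the c ring, was 61.7 in Prkci cKO 1 against at most 55.6 in the other Prkci cKO libraries, a gap of 0.904 of the range. The 3 libraries of Prkcz cKO are too few for this rule.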

How the results depend on the processing

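No subunit gene passed the adjusted threshold under any alternative run, and the median over all members kept its sign in each comparison; medians by role, length class and gene list were not recomputed. The medians by complex kept their sign except complex II in Prkci cKO (-0.01 to 0.00 over 20 alternatives) and complex IV between the knockouts (-0.04 to 0.05 over 18). Over the libraries left out in turn, the median was 0.04 to 0.08 in Prkci cKO, 0.09 to 0.13 in Prkcz cKO and -0.08 to -0.02 between the knockouts. With a replicate block the medians were 0.07, 0.11 and -0.04, and all-gene calls went from 230, 93 and 43 to 263, 69 and 73. Correlations of same-numbered deviations ran from -0.186 to 0.196. Libraries with different numbers were not compared, so whether the replicate numbers mark anything shared was not tested. With the Pkcz f/f controls alone the medians were 0.07 and 0.13, with 15 and 19 genes at an unadjusted p under 0.05. Scaling without Rn45s gave 0.07, 0.14 and -0.07, with 6, 37 and 14 genes at an unadjusted p under 0.05. Calls over all genes ranged from 94 to 346 in Prkci cKO, 12 to 108 in Prkcz cKO and 10 to 151 between the knockouts, and the cause was not tested. The median level per kilobase was 79.7 with the longest coding transcript in place of 49.2, by construction of a shorter length. For named genes, none past the adjusted threshold in any fit, the sign of the log2 difference changed in 19 fits in Prkci cKO, 9 in Prkcz cKO and 23 between the knockouts. In Prkci cKO, Sdhb was 0.00 under each of the 3 other scalings, and with the Pkcz f/f controls alone Atp5b was -0.01, Atp5f1 -0.02, Atp5g3 -0.03 and Uqcrfs1 -0.04. In Prkcz cKO, Cox7a2 was 0.00 with trimmed mean scaling, 0.02 with scaling without Rn45s, 0.04 with array weights and 0.08 with the f/f controls, and Cox4nb was 0.01 with array weights and 0.00 with the f/f controls. Between the knockouts, Cox6b1 was -0.01 with scaling without Rn45s, Cox8a was 0.02 with the replicate block, and array weights gave 0.01 for Atp5sl and Cox8a, 0.04 for Cox6a2 and 0.03 for Uqcrq. Over the libraries left out in turn, the ranges of genes that changed sign were -0.01 to 0.03 for Atp5g3, -0.00 to 0.03 for Atp5b, -0.02 to 0.03 for Atp5f1, -0.09 to 0.06 for Atp5s, -0.01 to 0.01 for Sdhb, -0.01 to 0.07 for Atp5sl and -0.03 to 0.11 for Uqcrh in Prkci cKO, -0.05 to 0.04 for Cox7a2 in Prkcz cKO, and -0.01 to 0.10 for Cox4i1, -0.00 to 0.10 for Cox6a1, -0.03 to 0.05 for Cox6b1, -0.03 to 0.11 for Ndufa4, -0.09 to 0.04 for Cox6a2, -0.04 to 0.03 for Cox8a, -0.06 to 0.06 for Uqcrq, -0.13 to 0.01 for Uqcrh and -0.10 to 0.03 for Atp5sl between the knockouts. Prkcz cKO 3 was the shallowest library by the spacing of its low values, and 3 libraries in that group limit its precision.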
